A study of Homo sapiens with 12 samples.

Results

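The genes described here are 10 well-known transcriptional targets of p53: CDKN1A, MDM2, BBC3, TP53INP1, TP53I3, ZMAT3, RRM2B, SESN1, GDF15 and BTG2. A gene was taken where a probe set, the group of array probes read out as 1 value, was annotated with its symbol and no other, and the probe set with the highest mean signal stood for it. This gave 9 genes, each with 1 probe set, of the 18417 genes tested; BTG2 was not analysed here. RNA came from SZ95 sebocytes, a human sebaceous gland cell line immortalised with the large T antigen of a simian virus, a protein known to bind p53. The 12 arrays fell into 4 groups of 3: scramble siRNA untreated, scramble siRNA with UV-PAPC, OLR1 siRNA untreated and OLR1 siRNA with UV-PAPC. OLR1 encodes LOX-1, a scavenger receptor for oxidised lipoproteins, and UV-PAPC is the phospholipid PAPC oxidised by ultraviolet light, given at 25 µg/ml, 24 h after lipofection. All groups were grown in Sebomed medium and went through lipofection. The labels name no vehicle, no unoxidised PAPC and no untransfected cells, and they do not state how long UV-PAPC was given. The labels do not say whether the 3 replicates of a group came from separate cultures; the p-values therefore reflect how far these arrays differ, and that spread may be technical.

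p53 is a transcription factor that is held low by MDM2, an E3 ubiquitin ligase which p53 itself induces. When DNA damage or another stress frees p53 from MDM2, it binds its consensus sites and switches on genes that stop the cell cycle, start cell death, repair DNA, adjust metabolism and signal to other cells. In skin, this programme is best known as the response of epidermal cells to ultraviolet light.

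The signals were log2 values normalized by RMA, in which 1 unit is a doubling of signal. Differences are group means subtracted on that scale, tested with limma (empirical Bayes, all 12 arrays), and a gene was called when its p, adjusted by the Benjamini-Hochberg method over the 18417 genes, was under 0.05. OLR1, the targeted gene, lay between 5.35 and 6.19 on the 6 scramble arrays and between 4.33 and 4.66 on the 6 OLR1 siRNA arrays. Its mean was 5.70 ± 0.44 (SD, n = 3) with scramble and 4.51 ± 0.14 with OLR1 siRNA in untreated cells (limma adjusted p = 0.000484), and in UV-PAPC cells it was 5.81 ± 0.36 with scramble and 4.40 ± 0.07 with OLR1 siRNA (adjusted p = 0.000162). UV-PAPC itself gave no call for OLR1. The medians of the tested genes lay between 6.31 and 6.36 on all arrays, and the number of arrays limits the precision. Epithelial markers were high (KRT8 12.45, KRT18 12.30, EPCAM 11.68), except KRT14 (6.25), which lay just below the medians. The sebocyte markers KRT7 (11.22) and SCD (10.46) were high, and PLIN2 (6.44) and PRDM1 (6.73) lay nearer the medians. MC5R (4.20) and the late sebaceous genes AWAT2 (4.03) and ELOVL3 (3.73) were low. The leukocyte marker PTPRC (3.26), the fibroblast markers DCN (3.09) and LUM (3.16) and the melanocyte marker MLANA (3.43) lay near the bottom of the range, but CD68 (9.62), MITF (8.41), CDH5 (8.19) and COL1A1 (7.15) of the leukocyte, melanocyte, endothelial and fibroblast lists lay above the medians.

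p53 acts through a 20-base consensus, a pair of decamers side by side. RefSeq promoter windows of GRCh38.p14, from 250 bases before to 50 bases after a transcription start, were searched for the p53 consensus with at most 3 mismatches; the consensus reads the same on both strands. A match was found in 1826 of 35116 windows (5.20%) and at 1745 of 27305 genes (6.39%). The table held 14 windows for 8 of the 10 targets, and 3 of these 8 had a match: MDM2, SESN1 and GDF15. The sequences below are those of the genes on which the values turn; capitals mark the matches, and each promoter is the 250 bases before the start, 5′ to 3′. The internal MDM2 promoter (chr12:68808767-68809016, plus strand) held 2 matches, with 2 and 3 mismatches, the first at -94 to -75 and the second at -56 to -37 from the start. 1 of the 3 SESN1 promoters (chr6:109008989-109009238, minus strand) held a match with 3 mismatches at -49 to -30. The ZMAT3 promoter (chr3:179071810-179072059, minus strand) held none. In GDF15 a match with 3 mismatches lay just downstream of the start (chr19:18386186-18386205, plus strand), and only the match itself is printed.
MDM2 internal promoter: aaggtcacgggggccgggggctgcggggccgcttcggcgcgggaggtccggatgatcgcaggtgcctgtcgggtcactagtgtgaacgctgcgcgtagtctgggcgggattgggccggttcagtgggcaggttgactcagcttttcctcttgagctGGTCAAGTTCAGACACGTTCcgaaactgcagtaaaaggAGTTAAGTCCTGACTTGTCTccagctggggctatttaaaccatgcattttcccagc
SESN1 promoter with a match: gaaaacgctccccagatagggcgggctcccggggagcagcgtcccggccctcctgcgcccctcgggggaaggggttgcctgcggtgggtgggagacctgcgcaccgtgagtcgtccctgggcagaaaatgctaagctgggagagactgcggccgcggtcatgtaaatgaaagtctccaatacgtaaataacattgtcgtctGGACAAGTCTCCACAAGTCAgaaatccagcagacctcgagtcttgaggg
ZMAT3 promoter without a match: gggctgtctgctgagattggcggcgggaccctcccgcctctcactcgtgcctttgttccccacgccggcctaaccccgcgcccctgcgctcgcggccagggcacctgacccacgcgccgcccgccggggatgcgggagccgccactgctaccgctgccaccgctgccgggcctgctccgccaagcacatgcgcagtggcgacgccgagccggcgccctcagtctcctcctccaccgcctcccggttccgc
GDF15 match: AGCCATGCCCGGGCAAGAAC
A match describes the letters only; binding was not measured, and a window without one says nothing about sites elsewhere in the gene.

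The first question was whether the oxidised phospholipid moved the p53 targets. None of the 9 was called in scramble-transfected cells, where 7.31% of all genes were, and none was called in OLR1 siRNA cells, where 6.71% of all genes were. Averaged over both siRNAs, a comparison of 6 arrays with 6, 2 of the 9 were called, where 14.0% of all genes were; both, MDM2 and ZMAT3, were lower, as were 8.03% of all genes. No target was called higher with UV-PAPC in any of these comparisons. With 9 targets and such shares of all genes, this absence is not a result about the targets. The median difference of the 9 targets was -0.06 under scramble siRNA, -0.13 under OLR1 siRNA and -0.09 on average, beside -0.00, -0.01 and -0.01 for all genes.

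MDM2, the ligase that closes the feedback loop on p53, was the target that most clearly fell with UV-PAPC. Its signal was 8.81, 8.58 and 8.58 in untreated scramble cells and 8.38, 8.47 and 8.28 with UV-PAPC, so the groups did not overlap. With OLR1 siRNA it was 8.63, 8.72 and 8.48 untreated and 8.31, 8.33 and 8.50 with UV-PAPC, where 1 treated array lay just above the lowest untreated one. MDM2 was thus mostly lower with UV-PAPC under both siRNAs, but neither comparison passed alone. The difference was -0.28 under scramble siRNA (95% CI -0.46 to -0.09, limma adjusted p = 0.066) and -0.23 under OLR1 siRNA (-0.42 to -0.05, adjusted p = 0.146). Averaged over both it fell by 0.26 (SE 0.06, 95% CI -0.39 to -0.12, adjusted p = 0.00948), and it stayed called in 19 of 19 other settings, including the removal of each array in turn. The responses under OLR1 and scramble siRNA differed by 0.05 (-0.21 to 0.31, adjusted p = 0.967).

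CDKN1A encodes p21, the inhibitor of cyclin-dependent kinases through which p53 stops the cell cycle. In scramble-transfected cells it measured 8.89, 8.82 and 8.98 untreated and 8.93, 8.87 and 8.79 with UV-PAPC, and the groups overlapped. In OLR1 siRNA cells it measured 8.74, 8.69 and 8.72 untreated and 8.84, 8.84 and 8.90 with UV-PAPC, with every treated array above every untreated one. The gene therefore showed its lowest level in untreated OLR1 siRNA cells (mean 8.71 ± 0.02, SD, n = 3) and means of 8.86 to 8.90 in the other groups. With UV-PAPC the difference was -0.04 under scramble siRNA (95% CI -0.18 to 0.10, limma adjusted p = 0.833) and 0.15 under OLR1 siRNA (0.01 to 0.29, adjusted p = 0.231). Neither was called, and the intervals reached up to a rise of 0.10 and 0.29. The responses differed by 0.19 (-0.01 to 0.38, adjusted p = 0.904), which did not pass.

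BBC3, TP53I3 and TP53INP1 belong to the arm of the pathway that leads to cell death. BBC3 encodes PUMA, a BH3-only protein that triggers the mitochondrial pathway of apoptosis, and its 12 arrays lay between 6.18 and 6.67 with all groups overlapping. TP53I3 encodes an oxidoreductase linked to oxidative stress in apoptosis; its 4 group means spanned only 0.08, the narrowest range of the 9 targets. Neither gene was called in any comparison. The UV-PAPC differences were 0.03 (95% CI -0.22 to 0.27) and -0.17 (-0.41 to 0.07) for BBC3 under scramble and OLR1 siRNA. For TP53I3 they were 0.01 (-0.16 to 0.17) and 0.03 (-0.14 to 0.19). All 4 intervals spanned 0.

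ZMAT3 encodes a zinc finger protein that binds RNA and controls the stability and splicing of messages downstream of p53. Its signal was 6.91, 6.83 and 7.01 in untreated scramble cells and 6.70, 6.66 and 6.52 with UV-PAPC. With OLR1 siRNA it was 6.50, 6.56 and 6.34 untreated and 6.38, 6.12 and 6.50 with UV-PAPC. The untreated scramble arrays lay above all 9 others, and the arrays with both OLR1 siRNA and UV-PAPC held the lowest mean. The UV-PAPC difference was -0.29 under scramble siRNA (95% CI -0.49 to -0.09, limma adjusted p = 0.0852) and -0.13 under OLR1 siRNA (-0.33 to 0.07, adjusted p = 0.517). On average it fell by 0.21 (SE 0.07, adjusted p = 0.0489), a call at the edge of the threshold. That call was kept in the removal of scramble untreated replicate 2, OLR1 siRNA untreated replicate 3 or OLR1 siRNA UV-PAPC replicate 3, and was lost without each of the other 9 arrays (adjusted p 0.0537 to 0.117).

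GDF15, a secreted cytokine of the TGF-β superfamily that many kinds of cell stress induce, had lower means with UV-PAPC, which did not pass the test. In scramble-transfected cells it measured 6.91, 6.65 and 6.96 untreated and 6.71, 6.75 and 6.67 with UV-PAPC. In OLR1 siRNA cells it measured 6.92, 7.07 and 7.36 untreated and 6.80, 6.88 and 6.72 with UV-PAPC, and these groups did not overlap. The difference was -0.13 under scramble siRNA (95% CI -0.35 to 0.09, limma adjusted p = 0.563), -0.32 under OLR1 siRNA (-0.53 to -0.10, adjusted p = 0.0829) and -0.22 on average (-0.38 to -0.07, adjusted p = 0.053), so none was called; the average was called in 4 of 19 other settings. RRM2B, the p53-inducible small subunit of ribonucleotide reductase, and SESN1, a sestrin that restrains mTORC1 signalling, showed UV-PAPC differences from -0.14 to -0.06 with intervals that spanned 0. TP53INP1, a stress protein that promotes p53 activity and autophagy, showed -0.05 (-0.32 to 0.23) and 0.05 (-0.23 to 0.32).

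**Figure D1:**
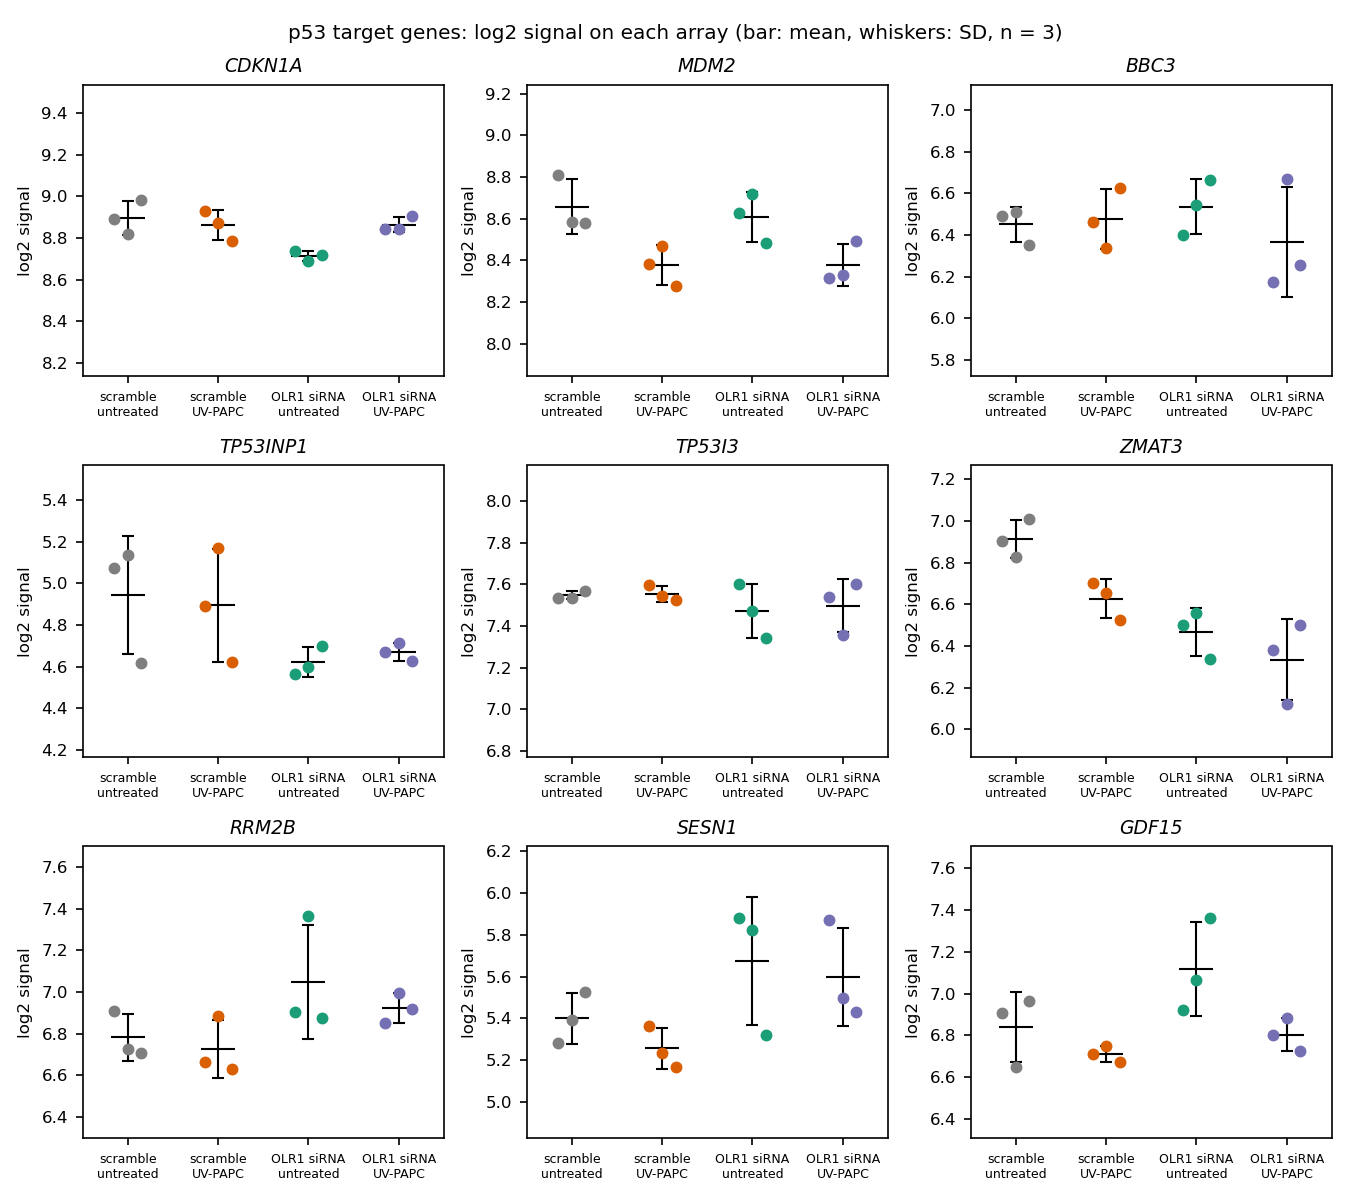
Each panel plots the log2 signal (vertical axis, 1.4 units tall in every panel) of 1 p53 target on the 3 arrays of each of the 4 groups (horizontal axis); points are arrays, bars are means and whiskers are SD. ZMAT3 is highest on the untreated scramble arrays (6.83 to 7.01), and TP53I3 stays between 7.34 and 7.60. MDM2 has lower means with UV-PAPC under both siRNAs, and its groups overlap under OLR1 siRNA.

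The second question was how the p53 targets differed with OLR1 siRNA. The siRNA groups had an OLR1 signal 2.28-fold lower untreated and 2.64-fold lower with UV-PAPC, and OLR1 protein was not measured here. In untreated cells 1 of the 9 was called, ZMAT3, beside 9.71% of all genes in either direction and 4.42% lower. With UV-PAPC none was called, beside 12.5% of all genes. Averaged over both treatments, 4 of the 9 were called beside 23.0% of all genes: RRM2B and SESN1 higher (12.9% of all genes were higher) and ZMAT3 and TP53INP1 lower (10.2% were lower). The targets thus split, and their median difference was -0.05 in untreated cells, 0.00 with UV-PAPC and -0.02 on average, beside -0.00, -0.01 and -0.01 for all genes. CDH5 rose with OLR1 siRNA by 0.65 untreated and 0.50 with UV-PAPC, CD68 by 0.40 and 0.44 and MITF by 0.26 and 0.43. They are 1 gene each of the endothelial, leukocyte and melanocyte marker lists. In each of these comparisons 1 of 4, 1 of 5 and 1 of 4 tested markers were called. By sign alone, the endothelial list had 1 marker higher and 3 lower in both comparisons. The leukocyte list had 4 higher and 1 lower untreated, and 2 higher and 3 lower with UV-PAPC. The melanocyte list had 3 higher and 1 lower untreated, and 1 higher and 3 lower with UV-PAPC. On average over both treatments, 1 melanocyte marker was called higher and 1 lower. The array means of these lists were 5.15 to 5.29 (endothelial), 5.26 to 5.34 (leukocyte) and 5.08 to 5.17 (melanocyte) on scramble arrays and 5.25 to 5.34, 5.29 to 5.42 and 5.04 to 5.19 on OLR1 siRNA arrays. The mean signals of CDH5 (8.19), CD68 (9.62) and MITF (8.41) were high, those of VWF (4.59), PTPRC (3.26) and TYR (3.53) low. Sebocyte marker means were lower with OLR1 siRNA, 7.31 to 7.37 against 7.39 to 7.49 in untreated cells and 7.28 to 7.32 against 7.37 to 7.45 with UV-PAPC, and on average 3 of 11 sebocyte markers were called lower and 0 higher. The part of these markers in the results was not tested.

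ZMAT3 showed the largest difference with OLR1 siRNA among the targets in untreated cells and on average; with UV-PAPC that of SESN1 was larger (0.34 against -0.29), though neither was called. All 3 untreated OLR1 siRNA arrays, 6.34 to 6.56, lay below the untreated scramble arrays, 6.83 to 7.01, and the gene fell by 0.45 (SE 0.09, 95% CI -0.65 to -0.25, limma adjusted p = 0.00622), which is 1.36-fold. The call was kept in 20 of 20 other settings. Among these, leaving out a UV-PAPC array changed the estimated spread but could not move this untreated difference. With UV-PAPC the groups did not overlap either, but the difference of -0.29 (-0.49 to -0.09) just missed the threshold at an adjusted p of 0.0544. On average over both treatments ZMAT3 fell by 0.37 (SE 0.07, adjusted p = 0.000863), and this call was kept in 19 of 19 other settings. The group means therefore ran from 6.91 ± 0.09 (SD, n = 3) in untreated scramble cells through 6.63 ± 0.09 with UV-PAPC and 6.47 ± 0.12 with OLR1 siRNA to 6.34 ± 0.19 with both. The middle groups overlapped, at 6.52 to 6.70 and 6.34 to 6.56, and so did the lower ones. The effects of UV-PAPC under the siRNAs differed by 0.16 (-0.13 to 0.44, adjusted p = 0.931).

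SESN1 and RRM2B were higher with OLR1 siRNA. SESN1 measured 5.28, 5.39 and 5.53 in untreated scramble cells against 5.88, 5.82 and 5.32 with OLR1 siRNA, where replicate 3 of OLR1 siRNA fell within the scramble range. With UV-PAPC it measured 5.36, 5.23 and 5.17 against 5.87, 5.50 and 5.43, and the groups did not overlap. SESN1 rose by 0.31 on average (SE 0.10, 95% CI 0.11 to 0.51, limma adjusted p = 0.0288); the call held without scramble untreated replicate 3, scramble UV-PAPC replicate 1, OLR1 siRNA untreated replicate 3, OLR1 siRNA UV-PAPC replicate 2 or replicate 3, and was lost without each of the other 7 arrays (adjusted p 0.0528 to 0.0772). RRM2B measured 6.91, 6.73 and 6.71 against 6.91, 7.36 and 6.87 in untreated cells and 6.66, 6.88 and 6.63 against 6.85, 6.996 and 6.92 with UV-PAPC, so both pairs of groups overlapped. It rose by 0.23 on average (SE 0.08, 95% CI 0.06 to 0.40, adjusted p = 0.0477). This call held without scramble untreated replicate 1, scramble UV-PAPC replicate 2, or OLR1 siRNA untreated replicate 1 or 3, and was lost without each of the other 8 (adjusted p 0.0562 to 0.114). Without OLR1 siRNA untreated replicate 2, the highest array at 7.36, the difference was 0.15.

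TP53INP1 was lower with OLR1 siRNA, but its scramble arrays were uneven. It measured 5.07, 5.14 and 4.62 in untreated scramble cells and 4.89, 5.17 and 4.62 with UV-PAPC, against 4.56, 4.60 and 4.70 and then 4.67, 4.71 and 4.63 with OLR1 siRNA. Replicate 3 of each scramble group lay within the range of the 6 OLR1 siRNA arrays, and both comparisons overlapped. It fell by 0.27 on average (SE 0.09, 95% CI -0.47 to -0.08, limma adjusted p = 0.0428). The call held without scramble untreated replicate 3, scramble UV-PAPC replicate 3 or OLR1 siRNA untreated replicate 3 and was lost without each of the other 9 arrays (adjusted p 0.0519 to 0.112); it was also lost when arrays were centred on their medians (adjusted p = 0.063) or quantile normalized again (adjusted p = 0.0939).

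The remaining targets were not called with OLR1 siRNA under the settings above, though CDKN1A and GDF15 were under some others. CDKN1A was lower in all 3 untreated OLR1 siRNA arrays (8.69 to 8.74) than in the scramble arrays (8.82 to 8.98), by -0.18 (95% CI -0.32 to -0.04, limma adjusted p = 0.0972), and 0.00 apart with UV-PAPC (-0.14 to 0.14). That untreated difference was called under 3 other settings: with a trended and robust prior (adjusted p = 0.0481), with only genes above the median signal (0.0393) and with repeated quantile normalization (0.0274). On average CDKN1A differed by -0.09 (-0.19 to 0.01, adjusted p = 0.184), which became -0.15 and was called after repeated quantile normalization (adjusted p = 0.0154). GDF15 was 0.28 higher in untreated cells (0.06 to 0.50, adjusted p = 0.106) and 0.09 higher with UV-PAPC (-0.13 to 0.31, adjusted p = 0.607). On average it was 0.18 higher (0.03 to 0.34, adjusted p = 0.08). Among genes above the median signal GDF15 was called in untreated cells (adjusted p = 0.0454) and on average (0.0377), and with median centring on average (0.0495). MDM2 differed by -0.05 (-0.23 to 0.14) and 0.00 (-0.18 to 0.19), and TP53I3 by -0.08 (-0.24 to 0.09) and -0.06 (-0.22 to 0.11). BBC3 differed by 0.09 (-0.16 to 0.33) and -0.11 (-0.35 to 0.13).

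**Figure D2:**
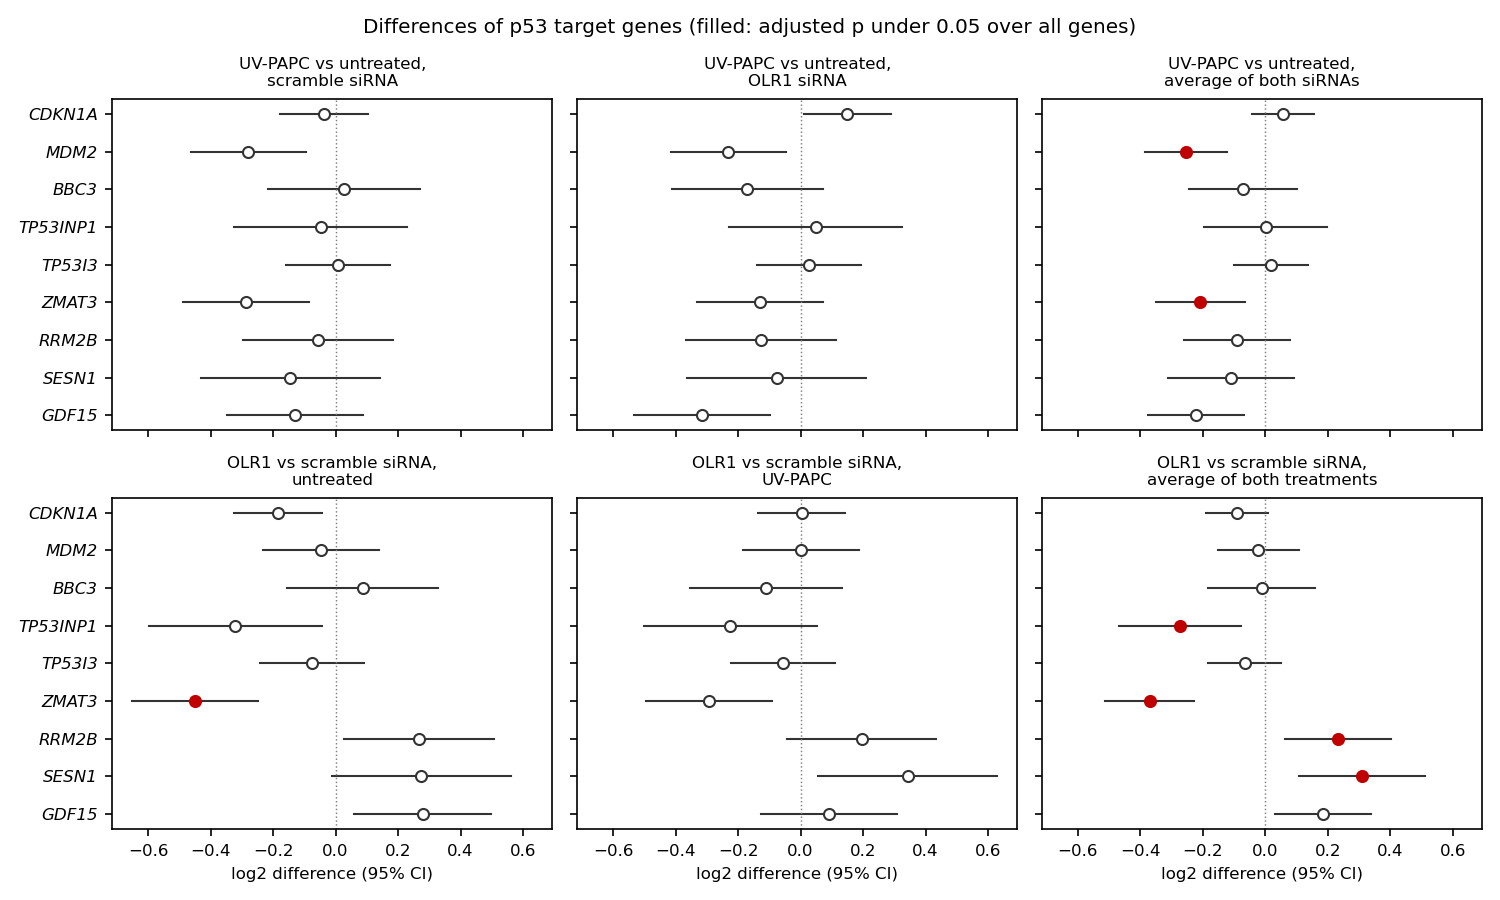
Each panel plots the log2 difference of the 9 p53 targets in 1 comparison, points being estimates and lines 95% confidence intervals; filled points were called (adjusted p under 0.05 over all genes). Filled points are MDM2 and ZMAT3 for UV-PAPC on average, ZMAT3 for OLR1 siRNA in untreated cells, and ZMAT3, TP53INP1, RRM2B and SESN1 for OLR1 siRNA on average. Comparisons in the panels share arrays.

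A last question was whether OLR1 siRNA altered the response to UV-PAPC. By limma's test of the difference of the responses, 0 of the 9 targets and 0 of all 18417 genes (0%) were called, and the lowest adjusted p among the targets was 0.904. At an unadjusted p under 0.05 there were 1004 genes and 0 targets. The count over all genes was 0 with a trended and robust prior and with array weights as well.

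Separation of the arrays was also counted without a model, as groups whose 3 arrays did not overlap. For UV-PAPC there were 2 of 9 under scramble siRNA (MDM2 and ZMAT3, both lower; 24.1% of all genes) and 2 of 9 under OLR1 siRNA (CDKN1A higher, GDF15 lower; 23.7% of all genes). For OLR1 siRNA there were 2 of 9 in untreated cells (CDKN1A and ZMAT3, both lower; 28.7% of all genes) and 2 of 9 with UV-PAPC (ZMAT3 lower, SESN1 higher; 30.8% of all genes). ZMAT3 was in 3 of these 4 comparisons, which share groups with one another.

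The wider pathway was read from lists of 15 tested regulators, 36 other p53 targets and 22 partners of p21 and members of the DREAM complex, which represses cell cycle genes. Of the 36 other targets, 2 rose and 5 fell with UV-PAPC under scramble siRNA, and 3 rose and 5 fell under OLR1 siRNA, shares of 19.4% and 22.2% beside the 7.31% and 6.71% of all genes above. The lists were not matched to all genes in signal level. When only the 9208 genes above the median signal were tested, 1652 and 1489 were called, and 2737 on average over both siRNAs. The medians of the 36 targets were 0.00 and 0.01. More of these targets fell than rose under either siRNA, and on average over both, 4 rose and 10 fell (38.9% beside 14.0% of all genes). By sign alone, called or not, they split evenly, with 18 above and 18 below 0 under each siRNA and 19 above and 17 below on average.

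Among the other death genes, PMAIP1, which encodes the BH3-only protein NOXA, rose with UV-PAPC by 0.39 under scramble siRNA (limma adjusted p = 0.0132) and by 0.49 under OLR1 siRNA (adjusted p = 0.00253), while BBC3, its fellow BH3-only gene, was not called. AIFM2, an oxidoreductase that suppresses ferroptosis, rose by 0.41 under OLR1 siRNA (adjusted p = 0.00392) and was 0.27 higher under scramble siRNA (adjusted p = 0.053). APAF1, the core of the apoptosome, fell by 0.37 under OLR1 siRNA (adjusted p = 0.0235) and differed by -0.22 under scramble siRNA (adjusted p = 0.196). Among cell cycle genes, PLK2 fell by 0.51 and 0.28, PLK3 by 0.28 and 0.32, and E2F7, a repressor of E2F targets, by 0.38 and 0.33. POLH, a polymerase that copies past ultraviolet lesions, fell by 0.38 under scramble siRNA. SFN, the cell cycle brake 14-3-3 sigma, rose by 0.37 under OLR1 siRNA. SESN2, a relative of SESN1 that responds to several stresses, rose by 0.52 under scramble siRNA (adjusted p = 0.00149) and was 0.19 higher under OLR1 siRNA (adjusted p = 0.278). DRAM1, which acts in autophagy, fell by 0.53 under OLR1 siRNA. SUSD6 fell by 0.44 under scramble siRNA. The called genes of the 36 thus ran both ways.

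With OLR1 siRNA, 5 of the 36 other targets rose and 3 fell in untreated cells, and 2 rose and 3 fell with UV-PAPC. KITLG, the ligand of the KIT receptor, rose by 0.59 and 0.58, and POLH by 0.33 and 0.46. PLK3 fell by 0.46 and 0.50, CYFIP2 by 0.48 and 0.49 and PHLDA3, an inhibitor of AKT signalling, by 0.23 and 0.29. APAF1 rose by 0.43, the repair gene XPC by 0.41 and DRAM1 by 0.34 in untreated cells. Of the shares, 22.2% of these targets were called in untreated cells and 13.9% with UV-PAPC, beside 9.71% and 12.5% of all genes. When only the 9208 genes above the median signal were tested, 2236 and 2759 were called.

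Among the 15 regulators, MDM4, the partner of MDM2 that also restrains p53, was 0.39 higher with OLR1 siRNA in UV-PAPC cells (limma adjusted p = 0.00471) and 0.12 higher in untreated cells (adjusted p = 0.406). CHEK1, a checkpoint kinase that signals to p53, rose by 0.34 and 0.44. TP73, a relative of p53, fell by 0.26 with UV-PAPC on average (adjusted p = 0.00936), and TP63 was not analysed here. On average, 1 regulator rose and 3 fell with UV-PAPC, and 3 rose and 1 fell with OLR1 siRNA. That is 26.7% of the 15 in both cases beside 14.0% and 23.0% of all genes. Of the 9208 genes above the median signal, tested alone, 2737 and 4029 were called.

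Several genes of the list of p21 partners and DREAM members had larger differences than CDKN1A itself. With UV-PAPC, 1 of the 22 rose and 7 fell under scramble siRNA, and 0 rose and 4 fell under OLR1 siRNA, or 36.4% and 18.2% of the list beside 7.31% and 6.71% of all genes. CCNB1 fell by 0.72 and 0.59, CCND1 by 0.60 and 0.47 and CCNE2 by 0.67 and 0.36. With OLR1 siRNA, 8 rose and 2 fell in untreated cells and 12 rose and 1 fell with UV-PAPC, or 45.5% and 59.1% beside 9.71% and 12.5% of all genes. CDK1, the mitotic kinase, rose by 0.91 and 1.00, CCNE2 by 0.80 and 1.12 and PCNA, a clamp of DNA replication that p21 binds, by 0.37 and 0.47, while CDK6 fell by 0.54 and 0.40. Beside these, CDKN1A differed by at most 0.18 between any pair of group means. The median of the 22 was 0.23 and 0.26 for OLR1 siRNA, beside -0.00 and -0.01 for all genes. Of the 9208 genes above the median signal, tested alone, 1652 and 1489 were called for UV-PAPC. For OLR1 siRNA 2236 and 2759 of them were called.

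**Figure D3:**
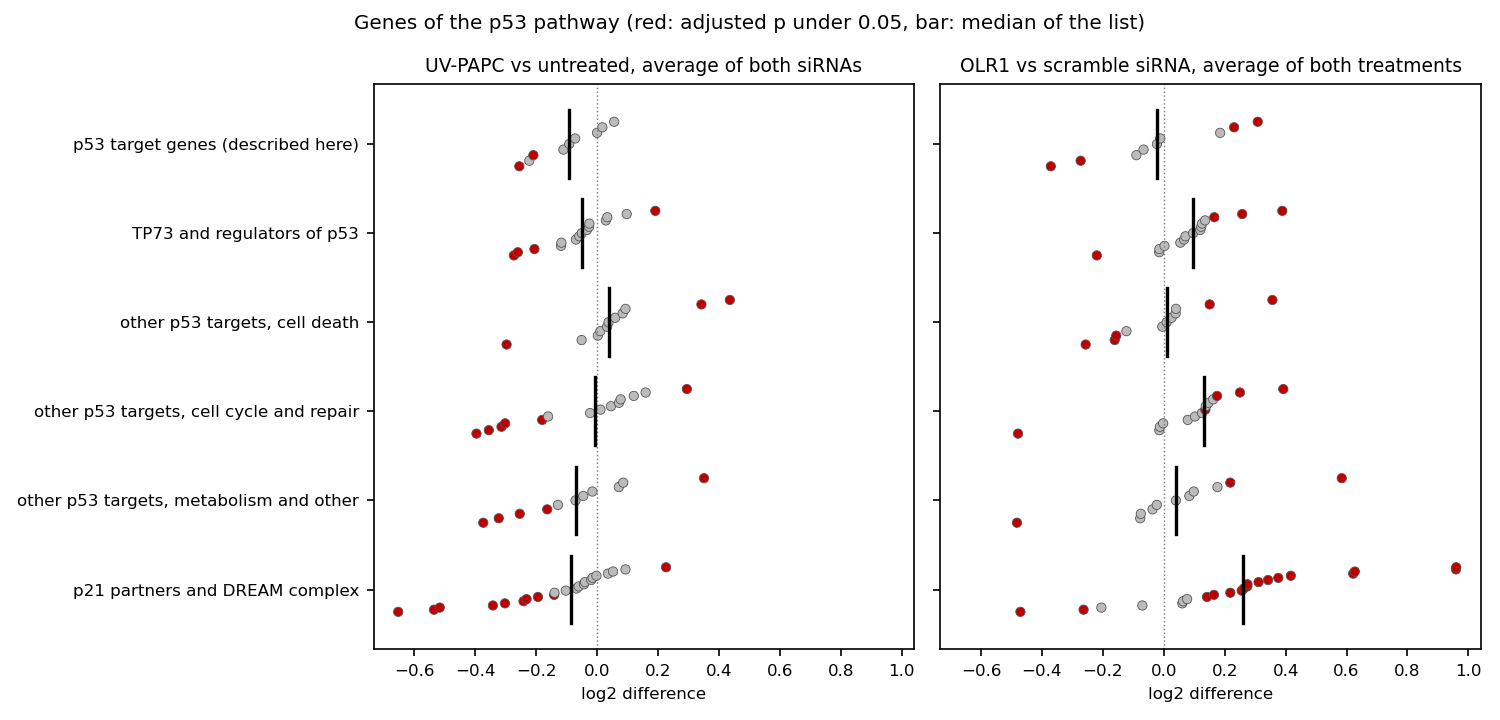
Each point is 1 gene's log2 difference (horizontal axis) in a list of the p53 pathway (vertical axis), on the left for UV-PAPC averaged over both siRNAs and on the right for OLR1 siRNA averaged over both treatments; red points were called and black bars are list medians. The median of the 9 targets lies at -0.09 and -0.02, that of the 22 p21 partners and DREAM members at -0.08 and 0.26.

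Relatives of the targets were called in both directions. RRM2, the cell cycle partner subunit that RRM2B stands in for, rose with OLR1 siRNA by 0.29 and 0.28, and RRM1, the large subunit, by 0.29 with UV-PAPC (limma adjusted p = 0.0166). BTG1, a relative of BTG2, fell with UV-PAPC by 0.36 and 0.40, and TOB1, another antiproliferative relative, rose by 0.37 under OLR1 siRNA and fell with OLR1 siRNA by 0.38 and 0.23. CDKN1B, which encodes p27, fell by 0.22 with UV-PAPC on average (adjusted p = 0.00825). CDKN1C, SESN3 and TP53INP2 were not called in any comparison. Of 11 tested sebocyte markers, PLIN2 rose with UV-PAPC by 0.58 and 0.67 and PPARG fell by 0.47 and 0.35; in each of these comparisons 1 of the 11 rose and 2 fell, and their part in the target values was not tested.

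Over the 4 groups, the range of the group means was widest for ZMAT3 (0.58, or 1.49-fold), SESN1 (0.42) and GDF15 (0.41) and narrowest for TP53I3 (0.08). The other targets had ranges of 0.32 for RRM2B and TP53INP1, 0.28 for MDM2, 0.18 for CDKN1A and 0.17 for BBC3. As a description over the 4 group means, each centred on its own average, the genes closest to ZMAT3 were EEF2K, LYPD6B and NFAT5, with root mean square differences of 0.015, 0.022 and 0.023. Those closest to SESN1 were TOPBP1, MSL3B and PPP6R3 (0.0033, 0.0041 and 0.0054), and those closest to GDF15 were ZNF678, ABHD10 and MPP7 (0.017, 0.017 and 0.018).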

How the data were processed

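The deposited values are log2 signals per probe set, used unchanged. The submitters' processing notes name RMA and Affymetrix Expression Console (version 1.3.1.187), so the authors' background correction and normalization were those of RMA; its settings are not stated in the labels, and RMA narrows large differences. Per the labels, 100 ng of RNA were labelled for each array. Of 33297 entries, 19460 carried 1 symbol, 1754 several and 12083 none in an annotation of 2016, so some pairings may be old; 19429 were matched by Entrez number to current symbols, which changed 0. The highest-mean probe set stood for each of 18417 genes.

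One mean per group was fitted in R 4.3.3 using limma 3.58.1; the tests were two-sided with 8 residual plus 7.66 prior degrees of freedom and Benjamini-Hochberg adjustment in each of 7 comparisons. The script was tested on simulated data. Promoters were from RefSeq; figures used Python 3.11.15 and matplotlib 3.10.9. Named are the targets, OLR1, TP73, MDM4, genes of the lists that passed, and the 3 genes nearest the 3 widest-ranging targets. The targets and lists were chosen with earlier results of these data known, so their direction is not independent evidence. Alternatives were a trended and robust prior, array weights, only genes above the median signal, averaged probe sets per gene, median centring, repeated quantile normalization, only the arrays compared, a replicate block and each array left out. Each target had 1 probe set, so averaging probe sets left its own values unchanged.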

Additional observations from a re-analysis of the deposited data

How the results depend on the processing

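No called target reversed its direction in any setting tried. The number of the 9 targets called for UV-PAPC under scramble siRNA was 0, and became 1 with a trended and robust prior, 2 among genes above the median signal, and 0 to 1 with each array left out. Under OLR1 siRNA it was 0, and became 1 among genes above the median signal and 0 to 1 with an array left out. For OLR1 siRNA in untreated cells it was 1, and became 2 with the trended prior, 3 above the median signal, 2 after repeated quantile normalization and 1 to 2 with an array left out. With UV-PAPC it was 0, and became 1 with the trended prior, array weights or genes above the median signal, and 0 to 1 with an array left out. For UV-PAPC on average it was 2, and became 1 with array weights, median centring or repeated quantile normalization, 3 with the trended prior or above the median signal (both adding GDF15), and 1 to 3 with an array left out. For OLR1 siRNA on average it was 4, and 1 to 4 with an array left out; median centring (GDF15 for TP53INP1) and repeated quantile normalization (CDKN1A for TP53INP1) kept 4 but exchanged a gene, and the median-signal filter gave 3, with GDF15 added. Filtering on the median signal tests 9208 genes, without TP53INP1 and SESN1. For these comparisons in order, the main fit called 1347, 1236, 1789, 2302, 2574 and 4242 of all 18417 genes. The trended prior called 1695, 1533, 2214, 2777, 2932 and 4457, and array weights 1842, 1392, 2295, 2839, 3004 and 4778. Above the median signal 1652, 1489, 2236, 2759, 2737 and 4029 of the 9208 were called. With an array left out the counts were 868 to 1340, 865 to 1397, 1101 to 2055 and 1267 to 2254. On average they were 2160 to 2449 and 3349 to 4215. Same-numbered arrays correlated from -0.22 to 0.26 over 18 pairs, 6 above 0.1, and 3 of 12 arrays correlated best with their own number, so the numbers were not taken as pairs; a replicate block left 1 target called for UV-PAPC on average, with ZMAT3 at an adjusted p of 0.0625. Each call of another named gene was counted once per setting, so the same call was counted many times. Of 1154 such counts 31 were lost in the other settings, and 214 of 1860 with an array left out. None reversed. The cause of these shifts was not tested.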
